A study of Xenopus tropicalis with 26 samples.

Results

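The comparison described here set H3K4me1 peaks of endoderm from embryos injected with alpha-amanitin against those of untreated endoderm in the frog Xenopus tropicalis. H3K4me1 ChIP-seq was carried out on the vegetal mass, the yolk-rich tissue labelled endoderm, of gastrulae at Nieuwkoop-Faber stage 10.25, collected 7 hours after fertilisation. Both groups came from eggs fertilised in vitro, both used vegetal tissue of 100 fixed embryos, and both were precipitated with 3 ug of antibody. The treated embryos had received 5 pg of alpha-amanitin. The other group is titled wild type and is called untreated here. There was 1 library per group. No mock-injected group is described in the labels, so the drug and the act of injection cannot be told apart. The members are all peaks of both deposited lists, 2372 after alpha-amanitin and 3740 untreated, of 56173 peaks in the 9 H3K4me1 lists of the series. A peak was called found in the other list when both overlapped by at least 1 bp.

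Monomethylation of histone H3 at this residue is placed mainly by the methyltransferases of the Kmt2c and Kmt2d complexes, and it marks enhancers, active as well as primed, and the flanks of promoters. Alpha-amanitin binds RNA polymerase II and stops transcript elongation. The frog egg carries a large maternal store of RNA and protein, and the embryo's own genome is largely silent until the midblastula transition. A block of RNA polymerase II therefore leaves maternal factors, such as the vegetally stored T-box factor Vegt, while new products of the embryo's genome, such as Nodal ligands and the endoderm factors Sox17 and Mixer, are not made. The comparison thus asks which marked regions are present in the vegetal mass without transcription from the embryo's genome.

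Peak lists do not record the number of reads, so the depth of both libraries is unknown, and with 1 library per group no test between the conditions is possible and no p-value is given. Intervals on shares are exact 95% Clopper-Pearson intervals over peaks and cover counting error only, not the spread between embryo batches. A bulk profile also cannot tell fewer marked cells from less of the mark per cell. The lists carry no gene expression, so the tissue label was not checked against marker genes, and no source used here names the genome build, so regions are given by position without genes. Some features of the lists touch the results below. The untreated endoderm list held many peaks of its own: 30.6% (29.1 to 32.1) of its peaks overlapped no peak of the 7 lists from other tissues or treatments, against 3.63% (2.91 to 4.46) of the alpha-amanitin endoderm peaks. Among regions merged over all 9 lists, 143 were in all 9, 38 were missing from untreated endoderm alone and 8 from alpha-amanitin endoderm alone. The same count was 237 for the endoderm of embryos injected with morpholinos, which has the shortest list, 29 for alpha-amanitin ectoderm, and 14 or fewer for each of the other 5 lists. The smallest fold enrichment over background was 3.96 in untreated endoderm and between 1.52 and 3.07 in the other lists. Among peaks with a −log10 p from 15 to 20, the median fold enrichment was 7.12 in untreated endoderm. It was 6.53 in alpha-amanitin endoderm and between 5.78 and 6.20 in the other single-library lists. Whether a property of the untreated library has a part in the results was not tested.

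After alpha-amanitin, 1101 of the 3740 untreated endoderm peaks were found and 2639 were missing, a share found of 29.4% (28.0 to 30.9). Seen from the treated list, 1100 of the 2372 alpha-amanitin peaks lay on an untreated peak and 1272 did not, a share found of 46.4% (44.4 to 48.4). These shares, 29.4% and 46.4%, are the background against which the subsets below are read. Measured in bases, untreated peaks covered 1426075 bp and alpha-amanitin peaks 868910 bp. The 358018 bp common to both were 25.1% of the untreated and 41.2% of the alpha-amanitin cover. Joining peaks of either list that lay at most 12.5 kb apart gave 2516 loci, of which 779 held peaks of both conditions, 1177 untreated peaks alone and 560 alpha-amanitin peaks alone. At this coarser scale 39.8% of the loci with an untreated peak also held an alpha-amanitin peak.

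Peaks found in both conditions were chosen by their overlap, so the closeness of paired peaks is a description of them and not a result. Of 1124 overlapping pairs, 1031 were 1 to 1, while 23 untreated peaks met 2 alpha-amanitin peaks and 24 alpha-amanitin peaks met 2 untreated ones. In the 1 to 1 pairs the summits lay a median of 71 bp apart (quartiles 28 and 153), 634 of the 1031 (61.5%) lay within 100 bp, and the median overlap took up 98.0% of the shorter peak. The 1 bp threshold decided few peaks. The smallest overlap was 4 bp and 8 pairs shared under 50 bp, while 17 untreated-only and 21 alpha-amanitin-only peaks ended within 100 bp of a peak of the other list, the nearest of each 3 bp away. Paired peaks had a median width of 391 bp untreated and 355 bp after alpha-amanitin, and the untreated peak was the wider in 570 of the 1031 pairs (55.3%). The authors' −log10 q of the paired peaks, the caller's evidence for a peak over background, were only loosely ordered alike, with a Spearman rho across pairs of 0.30, as were the widths, with a rho of 0.28. All pairs come from the same libraries, 1 per condition, and are not independent, so these values are a description.

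**Figure D1:**
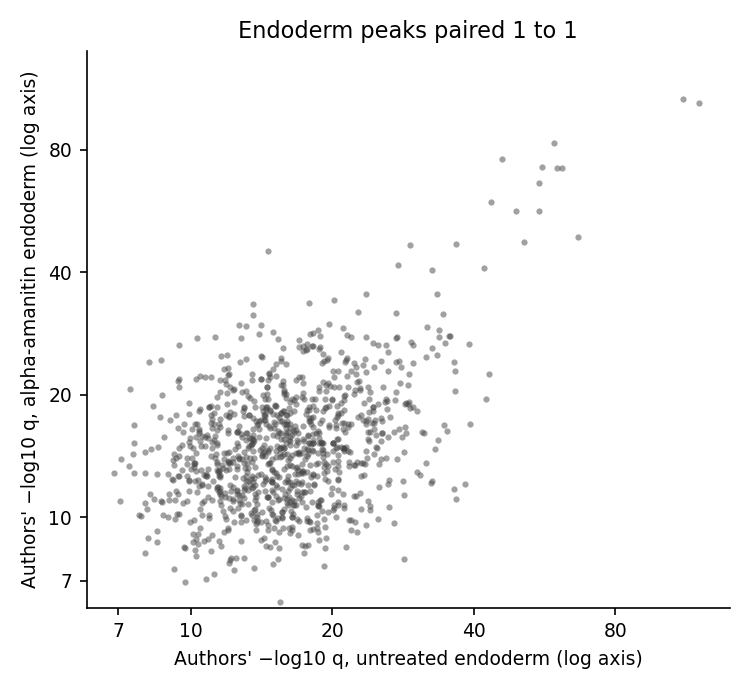
Each point is 1 of the 1031 endoderm regions with a single peak in each condition. The x axis gives the authors' −log10 q in untreated endoderm and the y axis that after alpha-amanitin, both on log axes. The bulk forms a broad cloud with a rank correlation of 0.30, and the region on chromosome 6 with values of 121 and 104 is among the few at the upper right.

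Stronger untreated peaks were found more often, yet many strong ones were missing. When the untreated list was ordered by the authors' −log10 q and cut into 10 bins of equal size, the share found went from 17.9% (14.2 to 22.2) in the weakest to 51.6% (46.4 to 56.8) in the strongest bin. Of the 100 strongest untreated peaks, 73 were found after alpha-amanitin, and of the 100 strongest alpha-amanitin peaks, 88 were found in untreated endoderm. In the alpha-amanitin list the share went from 28.2% (22.5 to 34.3) in the weakest to 80.2% (74.5 to 85.05) in the strongest bin. Shares of the alpha-amanitin list lay above those of the untreated list in every bin, and the list searched was the longer for the alpha-amanitin peaks. When the strongest 2372 untreated peaks were set against the alpha-amanitin list, 34.6% of untreated and 34.9% of alpha-amanitin peaks were found.

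**Figure D2:**
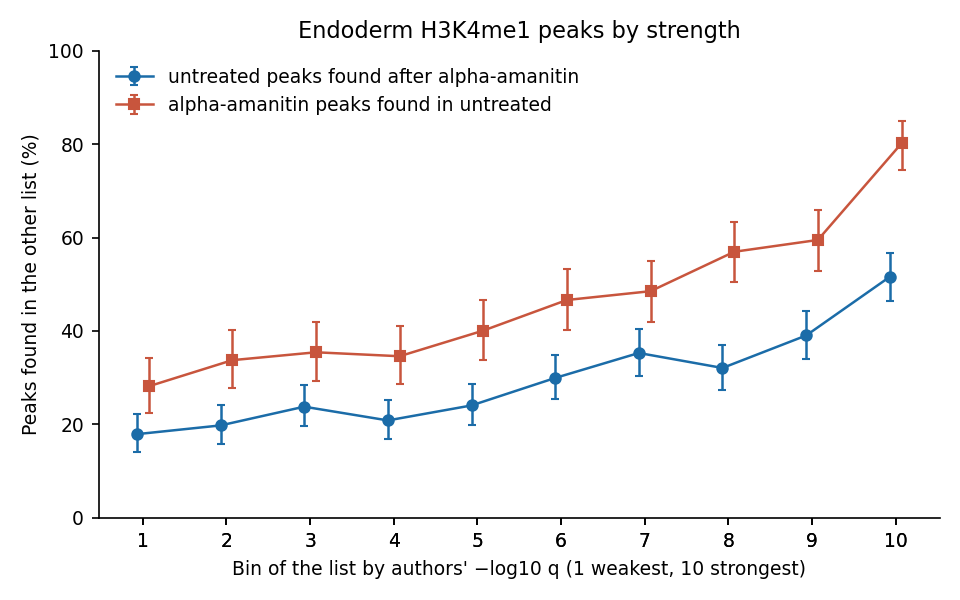
Share of endoderm peaks found in the other condition (y axis, %) by bin of the list, from the weakest to the strongest by the authors' −log10 q (x axis). Bars are exact 95% intervals. Untreated peaks (circles) go from 17.9% to 51.6% and alpha-amanitin peaks (squares) from 28.2% to 80.2%.

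Width ran alongside strength. Untreated peaks found after alpha-amanitin had a median width of 392 bp (quartiles 291 and 540), and those missing 308 bp (253 and 397). Over 5 bins of width, the share found went from 17.1% (14.5 to 20.0) of the narrowest to 48.1% (44.5 to 51.8) of the widest untreated peaks. A difference by width was also seen among peaks of like strength, in 5 bins of −log10 q. Within the strongest of these bins, 54.0% (48.8 to 59.1) of the wider peaks and 36.6% (31.7 to 41.7) of the narrower peaks were found, and within the weakest 21.0% (16.9 to 25.5) and 16.8% (13.1 to 20.9), where the intervals overlap. A wide peak also has more bases that can meet a peak of the other list. By the fold enrichment over background at the summit the untreated list was ordered less: 27.7% (24.5 to 31.0) of the untreated peaks in the lowest of 5 bins of fold enrichment were found and 35.8% (32.4 to 39.4) in the highest. In the alpha-amanitin list the share found climbed with fold enrichment, from 34.3% (30.1 to 38.8) in the lowest to 63.5% (59.0 to 67.8) in the highest bin, close to its climb from 30.9% (26.8 to 35.3) to 69.8% (65.5 to 73.9) over 5 bins of −log10 q.

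The share of untreated peaks found differed widely by whether other tissues and treatments carried the mark at the same place. Of the 3740 untreated endoderm peaks, 69.4% overlapped a peak in at least 1 of the 7 other lists, and of the 2372 alpha-amanitin peaks, 96.4%. Among the 1145 untreated peaks in no other list, 18 were found after alpha-amanitin (1.57%, 0.934 to 2.47). The share was 8.18% (6.23 to 10.5) with 1 other list, 36.1% (31.2 to 41.2) with 3, 70% (64.3 to 75.3) with 5 and 92.8% (87.1 to 96.5) with all 7. Peak strength differed little over most of this range, with a median −log10 q of 13.4 for peaks in no other list, 13.8 with 3 lists and 14.5 with 5, and 18.8 with all 7. Even in the strongest of 5 bins, 6 of 153 peaks in no other list were found (3.92%, 1.45 to 8.34), against 246 of 278 peaks in 4 to 7 other lists (88.5%, 84.1 to 92.0). In the weakest bin these shares were 1.498% (0.410 to 3.79) and 56.3% (48.2 to 64.2). The alpha-amanitin peaks showed a flatter course, from 22.1% (13.9 to 32.3) of 86 peaks in no other list, through 41.2% (35.8 to 46.8) with 3, to 51.2% (46.9 to 55.4) with 6 and 77.4% (70.3 to 83.6) with all 7. Recurrence in other lists stands for regions marked in several layers as well as for regions that are easily detected.

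**Figure D3:**
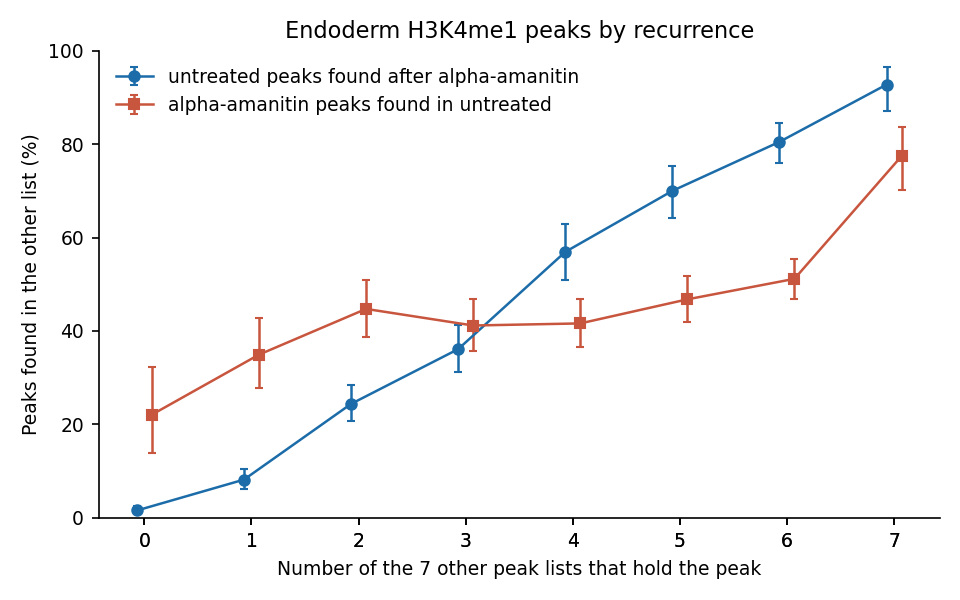
Share of endoderm peaks found in the other condition (y axis, %) by the number of the 7 other H3K4me1 lists that hold the peak (x axis). Bars are exact 95% intervals. Untreated peaks (circles) climb from 1.57% to 92.8%, and alpha-amanitin peaks (squares) stay between 34.9% and 51.2% from 1 to 6 lists.

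Regions marked in both endoderm conditions were mostly regions marked in mesoderm and ectoderm too, as was the whole alpha-amanitin list. Taking the untreated lists of both experiments together (a replicated first set with 2 pooled samples per layer, called set 1, and the set that holds the endoderm libraries), 876 of the 1101 untreated peaks that were found (79.6%, 77.1 to 81.9) overlapped both an ectoderm and a mesoderm peak, and 198 (18.0%, 15.8 to 20.4) a mesoderm peak alone. Over whole lists, both layers and mesoderm alone made up 39.8% and 27.8% of the untreated peaks, and 76.6% and 18.2% of the alpha-amanitin peaks. By layer pattern, 58.9% (56.4 to 61.4) of the 1487 untreated endoderm peaks shared with both layers were found after alpha-amanitin. The share was 19.0% (16.7 to 21.5) for the 1041 shared with mesoderm alone, and 1.96% (1.24 to 2.92) for the 1175 shared with neither. The untreated ectoderm lists, with 4148 and 13130 peaks, were shorter than the mesoderm lists, with 8812 and 15925. Mesoderm alone can therefore include regions that were not called in ectoderm. The 37 shared with ectoderm alone gave 10.8% (3.03 to 25.4). The alpha-amanitin list had no such contrast between both layers and mesoderm alone: 47.9% (45.6 to 50.2) of the 1818 peaks shared with both layers and 47.1% (42.3 to 51.9) of the 431 shared with mesoderm alone were found in untreated endoderm, and 23.1% (15.4 to 32.4) of the 104 shared with neither.

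The strongest regions of this class were marked nearly everywhere. The values that follow are the authors' −log10 q, which depend on each library's depth and are not measures of change. On chromosome 6, 116112302 to 116114513, a region 2212 bp wide had 121 in untreated endoderm and 104 after alpha-amanitin, and the 7 other lists ranged from 107 in set 1 mesoderm to 168 in untreated mesoderm. On the same chromosome, 127555779 to 127556747 had 66.5 untreated and 48.7 after alpha-amanitin and was also in all 7 other lists. On chromosome 1, 93547889 to 93548843 had 61.7 and 72.1, with values from 54.0 in untreated ectoderm to 155 in set 1 mesoderm. The peak on chromosome 9, 34257826 to 34258203, with 59.1 untreated and 82.9 after alpha-amanitin, was missing from set 1 ectoderm alone. On chromosome 7, 61803626 to 61805051 had 51.1 and 47.6 and was in all 7 other lists. An exception to this breadth lay at 18608862 to 18609375 on chromosome 7, with 43.0 untreated and 22.6 after alpha-amanitin: it was held by untreated mesoderm and by alpha-amanitin mesoderm and ectoderm, but by no untreated ectoderm list. That peak belongs to a cluster of 13 untreated peaks.

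The untreated peaks that were missing after alpha-amanitin mostly fell into those seen nowhere else and those seen in mesoderm, as did the whole untreated list. Of the 2639, 1127 (42.7%, 40.8 to 44.6) were in no other list, against 30.6% of the whole untreated list. Another 843 (31.9%, 30.2 to 33.8) overlapped an untreated mesoderm peak but no untreated ectoderm peak, against 27.8% of the whole untreated list. A further 611 (23.2%, 21.6 to 24.8) were shared with both layers, against 39.8% of the whole list, and 33 (1.25%, 0.862 to 1.75) with ectoderm alone. Few were held by the alpha-amanitin lists of the other layers: 237 (8.98%, 7.92 to 10.1) lay in mesoderm peaks and 157 (5.95%, 5.08 to 6.92) in ectoderm peaks of treated embryos. For the untreated peaks that were found in alpha-amanitin endoderm, these shares were 64.9% (61.9 to 67.7) and 49.0% (46.1 to 52.0). Of all 3740 untreated endoderm peaks, 2346 (62.7%, 61.2 to 64.3) were thus in none of the 3 alpha-amanitin lists. Low shares were not particular to treated lists. Untreated ectoderm of the same experiment held 238 of the 2639 missing peaks (9.02%, 7.95 to 10.2) and 56.9% (54.0 to 59.9) of the found ones. Untreated mesoderm held 798 of the missing peaks (30.2%, 28.5 to 32.0), in a list of 8812 peaks against 3648 in alpha-amanitin mesoderm.

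The strongest of the missing peaks had few counterparts in the other lists. The highest authors' −log10 q, 43.5 with a fold enrichment of 14.95, belonged to a peak on chromosome 5, 81172596 to 81172967. It was in no other list, and the nearest alpha-amanitin endoderm peak lay 768442 bp away. On chromosome 4, 44419904 to 44420500 had 42.0 and was otherwise in set 1 mesoderm alone. Also on chromosome 4, 90089531 to 90089890 had 38.3 and was in set 1 mesoderm (12.1) and untreated mesoderm (16.5). The peak on chromosome 6, 113803229 to 113803539, with 38.1, was in both set 1 lists, with 6.67 in ectoderm and 11.5 in mesoderm. Another region of chromosome 4, 75977315 to 75977843, had 35.9, was in no other list, and belonged to a cluster of 6 untreated peaks. On chromosome 3, 28011566 to 28011852 had 35.2 and was otherwise in set 1 mesoderm, with 7.12. This last peak lay 1732 bp from an alpha-amanitin endoderm peak, within a cluster of 9 untreated peaks. Absence from alpha-amanitin endoderm defines the class. None of these 6 was in the other alpha-amanitin lists or the morpholino list, and none was in untreated ectoderm of the same experiment. The 4 with a counterpart all had it in set 1 mesoderm. Only the peak at 90089531 to 90089890 was also in untreated mesoderm of the same experiment. The whole class of 2639 was much the same. Of it, 11.1% (9.93 to 12.4) lay in alpha-amanitin ectoderm or mesoderm and 5.34% (4.52 to 6.27) in the morpholino list. Untreated ectoderm of the same experiment held 9.02% (7.95 to 10.2). Of its 1512 peaks with a counterpart in any other list, 1454 had one in untreated mesoderm of either set. This was not particular to missing peaks. It held for 2528 of the 2595 peaks with a counterpart in the whole untreated list, and for 1074 of 1083 among found peaks.

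Peaks present after alpha-amanitin and absent from untreated endoderm were mostly regions marked in the other layers, as was the whole alpha-amanitin list. Of the 1272, 1205 (94.7%, 93.4 to 95.9) recurred in at least 1 of the 7 other lists, near the 96.4% (95.5 to 97.1) of all alpha-amanitin peaks. Of the untreated-only peaks, 57.3% (55.4 to 59.2) recurred, and of all untreated peaks 69.4%. Without the long set 1 lists, in the 5 other lists of the same experiment, 87.1% (85.1 to 88.9) of the alpha-amanitin-only and 33.9% (32.1 to 35.8) of the untreated-only peaks recurred. Shared with both untreated ectoderm and untreated mesoderm were 947 (74.4%, 72.0 to 76.8), with mesoderm alone 228 (17.9%, 15.9 to 20.1), and with ectoderm alone 17 (1.34%, 0.780 to 2.13). This division by layer was close to that of the alpha-amanitin peaks found in untreated endoderm, of which 79.2% (76.7 to 81.5) were shared with both layers and 18.5% (16.2 to 20.9) with mesoderm alone. The 1272 peaks were narrower and weaker than the rest of their list, with a median width of 289 bp against 357.5 bp and a median −log10 q of 12.2 against 14.8. Of the 1272, 53.7% (50.9 to 56.5) were also in alpha-amanitin mesoderm, and ectoderm of treated embryos held 39.9% (37.2 to 42.6). Untreated mesoderm and ectoderm of the same experiment held more, 80.8% (78.5 to 82.9) and 47.5% (44.7 to 50.3). For the 1100 alpha-amanitin peaks found in untreated endoderm, the treated mesoderm and ectoderm shares were 63.7% (60.8 to 66.6) and 48.3% (45.3 to 51.3). Of the 1272, 67 recurred nowhere else (5.27%, 4.11 to 6.64).

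**Figure D4:**
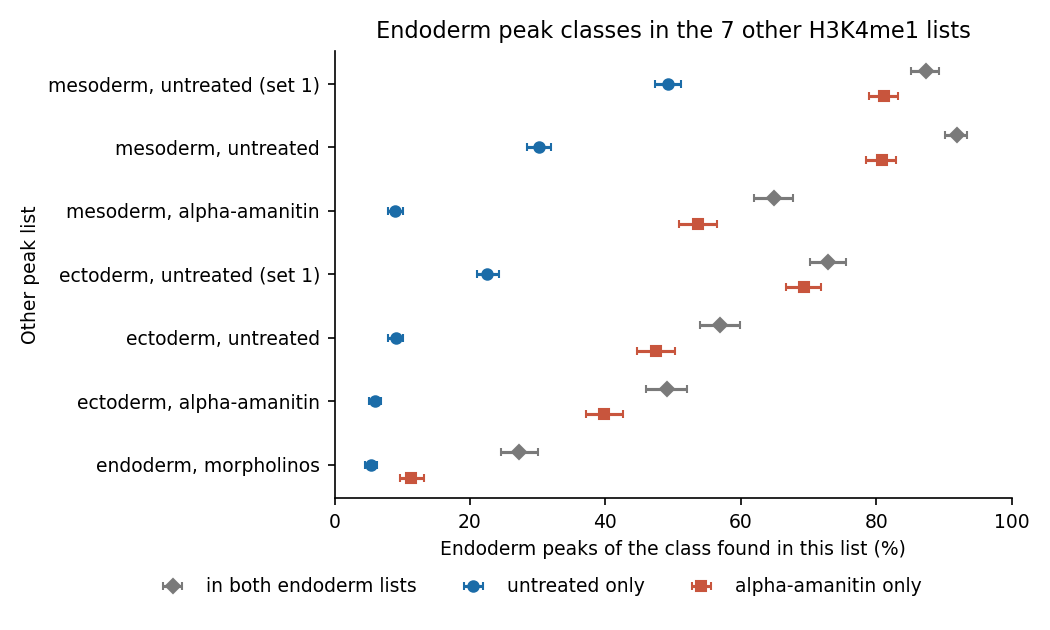
Share of endoderm peaks (x axis, %) found in each of the 7 other H3K4me1 lists (y axis), for peaks in both endoderm lists (diamonds, 1101 untreated peaks), in the untreated list alone (circles, 2639) and in the alpha-amanitin list alone (squares, 1272). Bars are exact 95% intervals. In untreated mesoderm the shares are 91.9%, 30.2% and 80.8%, and peaks of the alpha-amanitin list alone lie closer to the peaks of both lists than to untreated-only peaks in the 6 ectoderm and mesoderm lists.

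Among these peaks, the one with the highest authors' −log10 q lay on chromosome 5, 38567290 to 38567619, with 46.4 and a fold enrichment of 17.2. It was in all 7 other lists, with values from 16.0 in set 1 ectoderm to 51.3 in the morpholino endoderm, and the nearest untreated endoderm peak was 94227 bp away. On chromosome 6, 332476 to 332784 had 28.5 and was likewise missing from the untreated endoderm list alone. On chromosome 2, 72560762 to 72561137 had 29.6, and on chromosome 3, 127344118 to 127344495 had 27.9; each was in the 6 ectoderm and mesoderm lists. The peak on chromosome 5, 58642593 to 58642944, with 29.7, was in both set 1 lists and in untreated mesoderm, and lay 4727 bp from an untreated endoderm peak. On chromosome 8, 83849304 to 83849684 had 27.1 and was in untreated ectoderm and in mesoderm with and without alpha-amanitin. All 6 were thus present in untreated mesoderm, with −log10 q between 19.9 and 46.9 there, as were 94.8% of all alpha-amanitin peaks when set 1 is counted too.

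Untreated endoderm peaks occurred in groups, and the size of the group ran with the share found. Peaks at most 12.5 kb from their neighbour were joined, and of 3740 untreated peaks, 1183 stood alone, 782 were in pairs and 1775 in 402 clusters of at least 3. Of the lone peaks, 21.3% (19.0 to 23.7) were found after alpha-amanitin, against 31.2% (28.2 to 34.4) in clusters of 3 to 4, 37.7% (34.1 to 41.3) in clusters of 5 to 9 and 51.9% (43.9 to 59.8) in the 12 clusters of 10 or more. Peaks in the larger clusters were also wider, with a median of 396.5 bp in clusters of 10 or more against 298 bp for lone peaks, and stronger, with a median −log10 q of 16.2 against 13.1.

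Whole clusters were missing as well. No alpha-amanitin peak lay anywhere across 142 of the 402 untreated clusters (35.3%, 30.6 to 40.2), which held 523 peaks, while in 25 clusters (6.22%, 4.06 to 9.04) every peak was found and 235 were mixed. Of the 133 clusters of at least 5 peaks, 25 were emptied (18.8%, 12.5 to 26.5), and the largest emptied cluster had 7 peaks. When both endoderm lists were limited to peaks that also occur in a set 1 list, 50 of 265 untreated clusters were emptied (18.9%, 14.3 to 24.1). This limit was added after seeing the data. Set 1 has no endoderm list, so the limit keeps only peaks shared with ectoderm or mesoderm. Of the untreated peaks in a set 1 list, 42.2% were found after alpha-amanitin, against 29.4% of all untreated peaks. In the alpha-amanitin list, 26 of 230 clusters (11.3%, 7.52 to 16.1) had no untreated peak. Of its 57 clusters of at least 5 peaks this held for 0, with an exact interval from 0 to 6.27%. The peaks of the emptied untreated clusters had a median −log10 q of 14.4 and a median width of 341 bp. Over the whole untreated list, lone peaks included, these medians were 13.98 and 325.5 bp. Clustered peaks as a whole had higher medians, 14.6 and 349.5 bp in clusters of 3 to 4. They were 14.6 and 362 bp in clusters of 5 to 9, and 16.2 and 396.5 bp in clusters of 10 or more. Of the 523 peaks in emptied clusters, 259 (49.5%, 45.2 to 53.9) were in an untreated mesoderm list. That was below the 67.6% (66.1 to 69.1) of all untreated peaks and the 76.3% (74.3 to 78.3) of all peaks in clusters. Both of these backgrounds include found peaks, while the peaks of emptied clusters are untreated-only by definition. Of all 2639 untreated-only peaks, 55.1% (53.2 to 57.0) were in an untreated mesoderm list, nearer to the 49.5%. An untreated mesoderm peak lay in the spans of 113 of the 142 emptied clusters (79.6%, 72.0 to 85.9), against 92.3% (89.2 to 94.7) of all 402 clusters. For untreated ectoderm the counts were 58 (40.8%, 32.7 to 49.4) and 74.4% (69.8 to 78.6). No peak of any other list lay in 27 of the emptied clusters (19.0%, 12.9 to 26.4), against 7.21% (4.88 to 10.2) of all clusters.

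The largest emptied cluster lay on chromosome 6, 93693671 to 93706240, with 7 untreated peaks in 12570 bp and −log10 q from 11.4 to 24.9. Across it, set 1 ectoderm, set 1 mesoderm and untreated mesoderm had 1 peak each. On chromosome 9, 56958249 to 56969102 held 7 untreated endoderm peaks with −log10 q from 15.3 to 25.6, and no peak of any of the other 8 lists. Another cluster of 7, on chromosome 7, 64633395 to 64640012, met 1 peak of set 1 ectoderm, 2 of set 1 mesoderm and 1 of untreated mesoderm. On chromosome 4, 44552500 to 44574772, 6 untreated endoderm peaks were accompanied by 5 peaks of set 1 mesoderm, 3 of set 1 ectoderm and 3 of untreated mesoderm. These 4 spans were chosen for holding no alpha-amanitin endoderm peak, and none held a peak in the alpha-amanitin lists of the other layers or in the morpholino list. Absence was not particular to injected lists, since untreated ectoderm of the same experiment had no peak in these spans either.

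Of the 25 clusters in which every untreated peak was found, 24 held both an untreated ectoderm and an untreated mesoderm peak in their span (96%, 79.6 to 99.9), against 74.4% of all 402 clusters. On chromosome 2, 52559152 to 52578163 held 6 untreated and 8 alpha-amanitin endoderm peaks, with 11 peaks in untreated mesoderm and 8 in untreated ectoderm. On chromosome 6, 108858359 to 108875967 held 5 untreated and 6 alpha-amanitin peaks, and no morpholino peak. Chromosome 1, 10475240 to 10489274, held 5 and 4, and chromosome 2, 144519862 to 144528704, 5 and 6. The largest untreated clusters were mixed: on chromosome 1, 160309616 to 160339134, 17 of 22 peaks were found, on chromosome 2, 121710694 to 121774172, 10 of 17, on chromosome 3, 36873408 to 36914639, 10 of 16, and on chromosome 7, 18646207 to 18673607, 11 of 15. In these 4 clusters the alpha-amanitin list had 20, 13, 10 and 9 peaks.

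**Figure D5:**
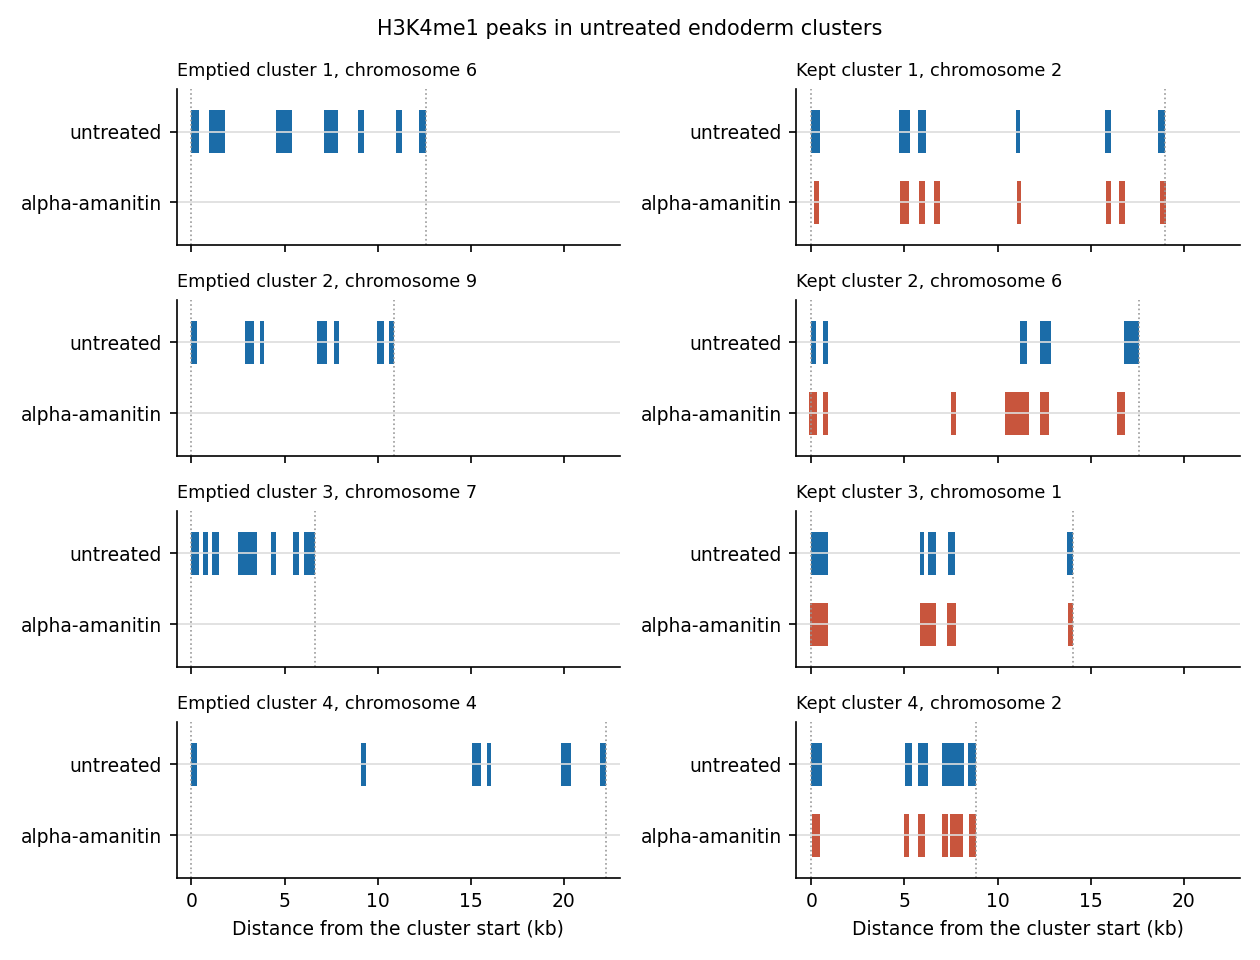
Peaks of untreated (upper row of each panel) and alpha-amanitin endoderm (lower row) in 8 untreated clusters, drawn to scale by distance from the cluster start (x axis, kb), with dotted lines at the cluster's ends. The left panels show the 4 largest clusters with no alpha-amanitin peak and the right panels, titled kept, the 4 largest in which every untreated peak was found, numbered in the order of the text.

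Clusters with peaks in the alpha-amanitin list alone were smaller. The 4 largest had 4 peaks each, at chromosome 9, 73333186 to 73344614, chromosome 7, 60119318 to 60128809, chromosome 5, 13183468 to 13188018, and chromosome 1, 56427755 to 56430697. Each held peaks of both set 1 layers, of untreated mesoderm and ectoderm and of alpha-amanitin mesoderm, and both untreated layers were present in the spans of 225 of all 230 alpha-amanitin clusters as well.

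Outside exact overlap, most missing peaks lay more than 10000 bp from any peak of the other condition. The distance expected for random positions was not computed. The 2639 untreated-only peaks lay a median of 75933 bp from the nearest alpha-amanitin peak, 12.4% (11.2 to 13.7) lay within 1000 bp and 30.2% (28.4 to 32.0) within 10000 bp. For the 1127 that were in no other list, the median was 217047 bp and 14.02% (12.0 to 16.2) lay within 10000 bp. The 1272 alpha-amanitin-only peaks lay nearer to untreated peaks, at a median of 23768 bp with 43.2% (40.4 to 45.9) within 10000 bp. With the untreated list at 2372 peaks, the median was 57692.5 bp and 33.6% (31.0 to 36.2) lay within 10000 bp, so part of that nearness goes with the longer untreated list.

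The share found varied little between chromosomes. Over the 10 chromosomes, the share of untreated peaks found ran from 25.3% (21.1 to 29.9) of 395 on chromosome 6 to 33.6% (24.8 to 43.4) of 107 on chromosome 10, with overlapping intervals. On scaffolds outside the chromosomes it was 40.9% (33.0 to 49.3) of 149 peaks. Among the alpha-amanitin peaks, the share ran from 42.5% (36.0 to 49.2) on chromosome 5 to 48.7% (42.1 to 55.4) on chromosome 4.

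The same contrast in the other layers, also with 1 library per condition, gives a setting for these values, and no difference between layers was tested. Over all peaks, 29.4% of the untreated list was found in endoderm, 48.3% (46.7 to 49.8) in ectoderm and 33.3% (32.3 to 34.3) in mesoderm. The mesoderm value lay near that of endoderm with these full lists, where 8812 untreated mesoderm peaks were set against 3648 after alpha-amanitin. Both lists of a layer were then cut to equal length, 2372 peaks in endoderm, 3206 in ectoderm and 3648 in mesoderm. Lengths thus still differed between layers. The shares were 34.6% (32.7 to 36.6) in endoderm, 53.7% (52.0 to 55.5) in ectoderm and 54.4% (52.8 to 56.0) in mesoderm, where the value lay near that of ectoderm. Of the 100 strongest untreated peaks, 73 were found after alpha-amanitin in endoderm, 93 in ectoderm and 96 in mesoderm. Within the strongest of 5 bins of each untreated list the shares were 45.3% (41.7 to 49.0), 74.4% (71.3 to 77.4) and 69.0% (66.7 to 71.1), and within the weakest 18.9% (16.1 to 21.8), 29.2% (26.1 to 32.4) and 12.6% (11.1 to 14.2). Among endoderm peaks that also occur in set 1, the strongest bin gave 56.2% (51.6 to 60.7) and the weakest 30.4% (26.3 to 34.8). The ectoderm and mesoderm lists were not limited in this way, so these values have no counterpart there. With the full lists, 35.3% of untreated clusters were left without an alpha-amanitin peak in endoderm, 5.09% (3.25 to 7.54) in ectoderm and 22.4% (19.8 to 25.1) in mesoderm. With both lists cut to these lengths, equal within a layer only, this share was 32.9% (26.8 to 39.4) in endoderm, 3.22% (1.62 to 5.68) in ectoderm and 8.85% (6.27 to 12.0) in mesoderm. With lists cut in the same way, alpha-amanitin clusters without an untreated peak made up 20.9% (15.8 to 26.7) in endoderm, 4.62% (2.67 to 7.40) in ectoderm and 5.45% (3.44 to 8.13) in mesoderm. Among untreated peaks missing after alpha-amanitin, 42.7% were in no other list in endoderm, 7.78% (6.68 to 8.997) in ectoderm and 23.6% (22.5 to 24.7) in mesoderm. The layers stood in the same order over their whole untreated lists, with 30.6% (29.1 to 32.1), 4.56% (3.94 to 5.24) and 16.5% (15.7 to 17.3). Besides the pair compared, each layer had 1 further list of its own, which held 1192 peaks in endoderm, 13130 in ectoderm and 15925 in mesoderm.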

How the data were processed

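Only the 9 deposited H3K4me1 peak lists were used. Bowtie2 2.2.7 is named in the submitters' processing notes. No source used here gives the genome build, the peak caller with its settings, or the use of input. The deposited lists give, in the 10-column narrowPeak layout, a score and a summit for each peak, the −log10 p and −log10 q, and a fold enrichment, which is a ratio over background. The smallest −log10 p was 9.22 in the untreated and 9.25 in the alpha-amanitin endoderm list. Lists of the 7 single libraries hold 1 library each, and the 2 set 1 lists come from pooled replicates, going by their peak names. The deposited values served to rank, filter and describe peaks within a list. Where values of different lists stand side by side they are descriptions and no measure of change, since they depend on each library's depth.

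Starts were made 1-based. Overlap, 5 or 10 bins by −log10 q, clusters (at least 3 peaks, gaps of at most 12.5 kb) and nearest distances were computed with pandas 2.3.3, numpy 2.4.6 and scipy 1.17.1 under Python 3.11.15. Figures were drawn with matplotlib 3.10.9. The overlap, cluster and distance steps made 0 wrong calls on 400 simulated peaks, where clusters were joined at a shorter gap. The bins were not checked in this way. Other lists means the 7 lists besides both untreated and alpha-amanitin endoderm. Named regions are the 6 peaks of each class on the 10 chromosomes with the highest −log10 q, and the 4 largest clusters of each kind. The 4 largest untreated clusters overall were added after their values had been seen, as were the splits by number of other lists, untreated layer, cluster size and width, the joined loci, the distances, the regions missing from a single list, the counterparts in ectoderm and mesoderm, and the layers in cluster spans. The members and alternatives were chosen with earlier results of these data known. The expression table was not used here.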

Additional observations from a re-analysis of the deposited data

How the results depend on the processing

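Of 55 recomputed shares, 23 stayed within the exact 95% interval of the reported value and 32 moved outside it. Allowing 500 bp between peaks, the untreated share found was 35.4% (strongest of 5 bins 49.5%, weakest 25.9%), the alpha-amanitin share 54.5%, and 60.8% of untreated-only peaks recurred elsewhere. With summits within 250 bp these were 24.97% (39.7%, 15.8%), 39.4% and 49.7%, and 90.5% of alpha-amanitin-only peaks recurred. With the upper 50% of each list, 26.4% and 41.1% were found, and 64.9% of untreated-only and 97.3% of alpha-amanitin-only peaks recurred. At a −log10 q of at least 15, 22.5% (strongest bin 41.0%) and 41.1% were found, 69.1% and 97.2% recurred, and 46.7% of clusters were emptied. At equal list length, 34.6% (49.2%, 23.8%) and 34.9% were found. Among peaks also in a set 1 list, an alternative added after seeing the data, 42.2% (56.2%, 30.4%) of untreated peaks were found, and 18.9% of clusters were emptied, as against 18.8% with at least 5 peaks per cluster. Set 1 has no endoderm list, so that alternative keeps only peaks shared with ectoderm or mesoderm. With only the 5 other set 2 lists, also added later, 33.9% of untreated-only and 87.1% of alpha-amanitin-only peaks recurred. The cause of these shifts was not tested. The strongest bin stayed above the weakest, and alpha-amanitin-only peaks recurred more often than untreated-only peaks, under each alternative run for them. Depth is unknown, so a missing peak is one not called at an unknown depth. No paired analysis was possible because each condition had 1 library.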

Other observations

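The other injected endoderm library, from embryos given the Vegt, Otx1 and Foxh1 morpholinos, had the shortest list, with 1192 peaks. It held 27.2% (24.6 to 30.0) of the untreated peaks that were also found after alpha-amanitin, 5.34% (4.52 to 6.27) of the untreated-only peaks and 11.3% (9.63 to 13.2) of the alpha-amanitin-only peaks. Peaks found in injected lists and in no untreated list of ectoderm or mesoderm were rare in each class: 5 of the 1101 found peaks, 25 of the 2639 untreated-only peaks and 13 of the 1272 alpha-amanitin-only peaks.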
